A study of Homo sapiens with 66 samples.

Results

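AMO1 is an established human multiple myeloma line, a cancer of antibody-secreting plasma cells. The 6 libraries compared here are its vehicle controls, 3 harvested after 6 h in DMSO (replicates 1 to 3) and 3 after 24 h (replicates 1 to 3), chosen by their cell line, treatment and time labels from 66 libraries of the series in 22 groups. Both groups were unmodified ("WT") AMO1 cells in the same solvent, so the contrast asks what changed in the control cells themselves between the times at which the study judged its compounds, inhibitors of prolyl-tRNA synthetase and the proteasome inhibitor carfilzomib (CFZ). Handling differed as well. Per the labels, lysates of the 6 h cells were frozen overnight in Trizol before RNA was purified, whereas those of the 24 h cells waited on ice, so time in culture and handling cannot be told apart in any value below. The labels do not say whether replicates were separate cultures. The paper's general statement on statistics speaks of biological triplicates unless specified otherwise, without describing those of these libraries. The p-values therefore measure the spread between these samples, which may be technical. Further below, the contrast is set beside AMO1 libraries in NCP22 and halofuginol, compounds of the study. DMSO libraries of L363-CFZr, a carfilzomib-resistant myeloma line, are also set beside it.

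Polyadenylated RNA was sequenced, and the unit is an estimated count per gene. Values are given in CPM (counts relative to a fixed library total, after scaling by the trimmed mean of M values, TMM), and changes as log2 fold changes of 24 h over 6 h with a standard error (SE) and a p from the quasi-likelihood test of edgeR, adjusted by Benjamini-Hochberg. All such values are relative to the other RNA of the same library, and fewer cells with a transcript and less of it per cell cannot be told apart in bulk RNA. Total counts were 2913987 to 3183765 in the 6 h libraries and 2712083 to 5005629 in the 24 h libraries, with 13248 to 13445 and 13499 to 14230 genes detected. Replicates correlated at 0.979 to 0.988 (log2 CPM, 6 pairs), and libraries of different times at 0.943 to 0.963 (9 pairs). The counts of replicates differed by 1.30 to 2.79 times Poisson noise, and 0 pairs were identical. Of 10 plasma cell markers, including JCHAIN and SDC1, 10 averaged over 1 CPM at both times, with a summed level of 9868 to 10022 CPM at 6 h and 8596 to 9103 CPM at 24 h. Summed markers of T and NK, myeloid, B, erythroid and stromal or endothelial cells stayed between 0 and 5.39 CPM in every library, and those of epithelial cells between 5.49 and 9.74 CPM, of which KRT8 averaged 5.56 CPM at 6 h and 5.93 CPM at 24 h. All of these marker levels are in CPM without TMM scaling.

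Several well-known programmes are described below. Hypoxia-inducible factors are stabilised at low oxygen and raise genes of glucose use and oxygen saving. Interferon-stimulated genes encode antiviral proteins driven by factors such as STAT2 and IRF9, and heat shock genes encode chaperones driven by HSF1.

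Between 6 h and 24 h, 4964 of 10665 tested genes changed at an adjusted p under 0.05 (46.5%), 2468 higher at 24 h (23.1%) and 2496 lower (23.4%). The steps were mostly small. The median absolute log2 fold change of the called genes was 0.50, and 404 genes were called with a change of at least 2-fold, 307 higher and 97 lower. The median over all tested genes was -0.00. Libraries of the 2 times did not overlap for 5787 genes, or 54.3%. Because so many genes were called, each count of list members below is to be read against these shares. Counts of 2 or fewer members moved by up to 2 with a library left out. With 3 libraries against 3, exact permutation of one gene's values cannot go below a two-sided p of 0.10.

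**Figure D1:**
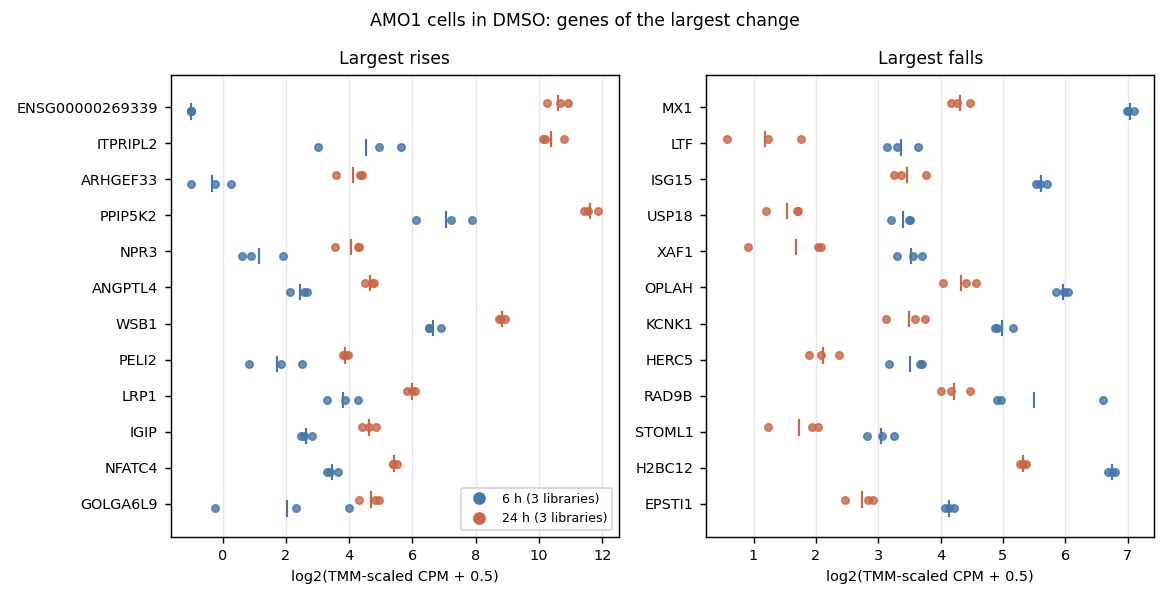
CPM in each of the 6 libraries, as log2(CPM + 0.5), for the 12 genes of the largest rise (left) and the 12 of the largest fall (right) among called genes that averaged 5 CPM or more and whose times did not overlap. Points are libraries, blue at 6 h and orange at 24 h, and ticks are group means. The 6 h libraries of GOLGA6L9, ITPRIPL2, PPIP5K2 and RAD9B scatter widely.

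The 4 genes of the largest rise behaved unlike the rest and are set apart first. ENSG00000269339, an identifier absent from GENCODE v44, was at 0 in all 3 libraries at 6 h and at 1626, 1941 and 1206 CPM at 24 h, at least 4941-fold higher against a floor of 3 counts over the 6 h group (in CPM without TMM scaling). ITPRIPL2 (chromosome 16, 19113932 to 19121629, GRCh38), which encodes a membrane protein related to inositol trisphosphate receptor regulators, was at 29.9, 7.51 and 49.3 CPM at 6 h and at 1169, 1765 and 1122 CPM at 24 h. PPIP5K2 (chromosome 5, 103120149 to 103212799), an inositol pyrophosphate kinase, was at 149, 67.9 and 235 CPM and then at 2965, 3758 and 2738 CPM, and ARHGEF33 had 3 counts in all at 6 h and 203 at 24 h. The groups were far apart for each of them, and lack of overlap was a condition of their choice. Log2 fold changes were 5.55 for ITPRIPL2 (SE 0.23, adjusted p = 2.98e-14) and 4.39 for PPIP5K2 (SE 0.21, adjusted p = 2.61e-13). Across all 66 libraries these genes varied together. Their median was higher at 24 h than at 6 h in 10 of the 11 pairs of line and treatment for PPIP5K2, and in 8 of 11 for each of the others, a description with no test. The 11 pairs include AMO1 DMSO, in which these genes were chosen for their rise. Their log2 CPM correlated with that of ENSG00000269339 at 0.84 to 0.94 over the 66 libraries, a description, since libraries share groups. ENSG00000269339 was at 0 in 4 libraries of the series, the 3 AMO1 DMSO libraries at 6 h and 1 of AMO1 CFZ at 6 h, while the AMO1 NCP22 libraries at 6 h held 1494 to 1603 CPM. PPIP5K2 ranged from 65.4 to 19488 CPM over the series. The levels, medians and correlations over the series, and those of the CFZ and NCP22 groups, are in CPM without TMM scaling. Replicates of a single group could also scatter widely. The AMO1 CFZ libraries at 24 h held 783 to 19488 CPM of PPIP5K2 and 339 to 9203 CPM of ITPRIPL2. The SEs above rest on the 6 AMO1 DMSO libraries alone. They come from a fit that shares information on variance between genes, so they are not the spread of each gene's own replicates. For ITPRIPL2 the 6 h libraries alone ran from 7.51 to 49.3 CPM. The 4 genes made up 0.00729 to 0.0282% of the counts at 6 h and 0.516 to 0.761% at 24 h. PPIP5K2 and ITPRIPL2 share 6 sequences of 31 bases in GENCODE v44, the word length of the read assignment, and neither shares any with ARHGEF33. With the 4 genes left out, an alternative chosen after seeing the data, 4967 genes were called. What part handling, time or anything else had in these values was not tested.

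**Figure D2:**
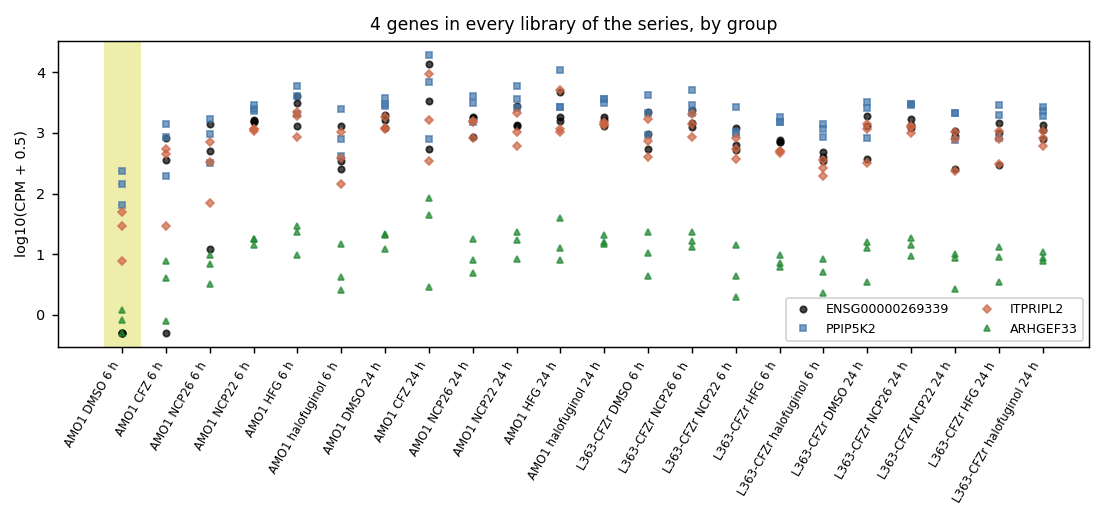
CPM of 4 genes without TMM scaling, as log10(CPM + 0.5), in each of the 66 libraries, by group in the order of the sample list. The shaded column is AMO1 DMSO at 6 h. The 4 genes rise and fall together between libraries, and AMO1 DMSO at 6 h holds the lowest PPIP5K2 value of the series (65.4 CPM).

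Among the remaining large rises, WSB1 (chromosome 17, 27294076 to 27315926), a substrate adaptor of a ubiquitin ligase, went from 92.3, 91.8 and 119 CPM at 6 h to 449, 483 and 423 CPM at 24 h. Every 24 h library was above every 6 h library, which was a condition for being named among these rises. The log2 fold change was 2.16 (SE 0.09, adjusted p = 8.26e-15). NFATC4, a calcium-regulated transcription factor, went from 9.33, 11.9 and 10.1 CPM to 41.1, 45.4 and 41.5 CPM (log2 fold change 2.03, SE 0.15, adjusted p = 2.76e-10). LRP1, an endocytic receptor, rose by 2.12 (SE 0.15) and NPR3, the natriuretic peptide clearance receptor, by 3.05 (SE 0.34). PELI2, an E3 ligase of Toll-like receptor signalling, rose by 2.16 (SE 0.29) and IGIP by 2.07 (SE 0.20). None of these overlapped between times, again by the rule of choice. GOLGA6L9 stood at 4.50, 15.4 and 0.347 CPM at 6 h and 29.9, 19.3 and 27.9 CPM at 24 h. Its call is uncertain, since 63.2% of its 31-base sequences occur in other genes and the adjusted p was 0.185 by the Wald test of DESeq2. Its log2 fold change was 1.91, and 3.32 without the 6 h replicate 2.

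Falls were led by interferon-stimulated genes. Of 29 tested members, 21 fell and 2 rose (IRF1 and STAT2), and the median log2 fold change was -0.67. MX1 (chromosome 21, 41420020 to 41470071), an antiviral GTPase, went from 127, 128 and 137 CPM at 6 h to 18.7, 17.5 and 21.8 CPM at 24 h. The groups stood wide apart, though lack of overlap was a condition for being named among the largest falls. The fall was 6.67-fold (log2 fold change -2.74, SE 0.10, adjusted p = 5.71e-15). ISG15 (chromosome 1, 1001138 to 1014540), a ubiquitin-like modifier, went from 47.6, 51.5 and 45.9 CPM to 9.01, 13.1 and 9.82 CPM (log2 fold change -2.16, SE 0.15, adjusted p = 9.44e-11). IFIT1 (chromosome 10, 89392546 to 89406487), which binds viral RNA, fell by 3.73 on the log2 scale (SE 0.46, adjusted p = 6.39e-07), from 5.47, 9.21 and 6.25 CPM to a total of 6 counts in the 24 h libraries. USP18, which removes ISG15 from proteins, fell by 1.98 (SE 0.28), MX2 by 1.99 (SE 0.36) and XAF1, a pro-apoptotic interferon target, by 1.93 (SE 0.30). Smaller falls were called for the peptide transporter TAP1 (-0.67), IRF7 (-0.66), IRF9 (-0.39) and the MHC class I light chain B2M (-0.19), while IFIH1 (0.10) and ISG20 (-0.00) were not called. Of the other large falls, HERC5, the ligase that attaches ISG15, fell by 1.54 (SE 0.26) and EPSTI1, an interferon-responsive gene, by 1.41 (SE 0.20). Outside that family, lactoferrin (LTF) fell by 2.48 (SE 0.33), the oxoprolinase OPLAH by 1.59 (SE 0.12), the potassium channel KCNK1 by 1.56 (SE 0.17) and STOML1 by 1.44 (SE 0.30). RAD9B, of a DNA damage clamp, was at 96.5, 29.3 and 30.9 CPM at 6 h and at 15.5, 17.5 and 21.6 CPM at 24 h, so that 1 library at 6 h stood apart. Its log2 fold change moved to -0.70 without that library, and its adjusted p in a fit of all AMO1 groups was 0.269.

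The promoters of ISG15 and IFIT1, the 250 bases before the RefSeq start (GRCh38.p14), are shown because both hold the core of the interferon-stimulated response element, GAAANNGAA, searched on both strands and set in capitals. ISG15 is on the plus strand at chr1:1013247-1013496 and IFIT1 on the plus strand at chr10:89392373-89392622.
ISG15: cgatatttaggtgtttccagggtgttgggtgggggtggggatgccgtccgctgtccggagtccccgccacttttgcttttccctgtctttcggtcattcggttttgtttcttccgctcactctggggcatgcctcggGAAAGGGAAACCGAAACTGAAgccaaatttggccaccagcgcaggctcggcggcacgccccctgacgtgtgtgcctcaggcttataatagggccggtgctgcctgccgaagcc
IFIT1: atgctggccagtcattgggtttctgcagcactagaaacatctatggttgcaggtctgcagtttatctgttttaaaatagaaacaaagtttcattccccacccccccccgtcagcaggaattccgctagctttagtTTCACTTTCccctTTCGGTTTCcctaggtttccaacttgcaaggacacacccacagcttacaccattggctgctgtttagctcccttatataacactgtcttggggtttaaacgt
ISG15 has 3 overlapping matches, which begin 113, 107 and 101 bases before the start, and IFIT1 has 2, at 115 and 102 bases. Of 25 list members with a RefSeq promoter, 13 hold the core (52%), against 1927 of 27305 promoters in all (7.06%). Of all 457 tested genes that hold it, 127 fell and 99 rose, with a median log2 fold change of -0.05. MX1 has no match in this window.

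Heat shock genes formed another falling group, with 14 of 20 tested members lower, 1 higher and a median of -0.57. HSP90AA1, the inducible HSP90, went from 936, 1000 and 1045 CPM at 6 h to 547, 527 and 596 CPM at 24 h. Its libraries did not overlap (log2 fold change -0.83, SE 0.06, adjusted p = 2.4e-10). The HSP90 activator AHSA1 fell by 0.82 (SE 0.09), and the co-chaperones STIP1 and FKBP4 by 0.63 and 0.62. HSPA1A fell by 1.19 (SE 0.16) and HSPA1B by 0.82 (SE 0.09), but 76.0% and 74.6% of their 31-base sequences occur in other genes (the pair are near-identical copies), so their counts are uncertain one by one. The HSP70 co-chaperone BAG3 was the member that rose (0.62).

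Genes for making ribosomes and for respiration fell in nearly every member by small amounts. Of 29 ribosome biogenesis genes 28 fell and 0 rose, with a median of -0.55. NOLC1, a nucleolar assembly factor, went from 339, 325 and 305 CPM to 168, 159 and 185 CPM (log2 fold change -0.92, SE 0.07, adjusted p = 9.15e-10), and MYBBP1A, RRP9 and RRP12 fell by 0.95, 0.95 and 0.92. Of 84 cytosolic ribosomal protein genes 79 fell and 0 rose, but the median was -0.23, and in a fit of all AMO1 groups 6 were called with a median of -0.23. Ribosomal protein genes made up 12.8 to 13.6% of counts at 6 h and 11.5 to 11.9% at 24 h. Of 78 nuclear-encoded subunits of the respiratory chain 69 fell and 0 rose, with a median of -0.48. ATP5MC1, a subunit of the ATP synthase rotor, went from 168, 158 and 143 CPM to 72.1, 80.4 and 81.9 CPM (log2 fold change -0.99, SE 0.09, adjusted p = 3.7e-09), and the complex I subunits NDUFS6 and NDUFS5 fell by 0.92 and 0.84. Of 13 mitochondrially encoded genes 10 fell (median -0.22), 4 of them called in the fit of all AMO1 groups. MT-CO3 was at 5175, 5456 and 5019 CPM and then at 3507, 3464 and 3772 CPM, whereas MT-CO1 (-0.03), MT-ND4 (-0.05) and MT-ND4L (-0.08), read from the same circular genome, were not called.

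Hypoxia targets had the highest median of the 29 lists. Of 22 tested members 17 rose and 0 fell, with a median of 0.88, and every 24 h library had a higher mean level than every 6 h library. Most of the lists separated by time in this way. The glycolysis list, with a median of 0.01, also did (-0.16 to -0.06 at 6 h and 0.08 to 0.13 at 24 h). ANGPTL4 (chromosome 19, 8363289 to 8374370), a secreted lipase inhibitor, went from 3.86, 5.46 and 5.91 CPM to 22.0, 26.9 and 25.9 CPM (log2 fold change 2.31, SE 0.20, adjusted p = 4.15e-09). PPFIA4 (chromosome 1, 203026491 to 203078740), a liprin scaffold protein, went from 25.7, 27.98 and 27.4 CPM to 114, 111 and 80.8 CPM (log2 fold change 1.90, SE 0.13, adjusted p = 1.48e-10). P4HA1 (chromosome 10, 73007217 to 73096974), a collagen prolyl hydroxylase, went from 173, 194 and 201 CPM to 454, 456 and 439 CPM (log2 fold change 1.25, SE 0.07, adjusted p = 2.13e-12). These 3 genes did not overlap between times, which for ANGPTL4 was a condition of its choice as a largest rise. The glycolytic regulator PFKFB4 rose by 1.40, the lipid droplet protein HILPDA by 1.23, the carbonic anhydrase CA9 by 1.02, the oxygen sensor EGLN1 by 0.85 and VEGFA, the vascular growth factor, by 0.83. PFKFB4 is also counted in the glycolysis list. ADM (-0.16), ANKRD37 (0.03), FAM162A (0.13), the glucose transporter SLC2A1 (0.16) and BNIP3 (0.36) were not called.

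The promoters of PPFIA4 and P4HA1 are shown as examples with ACGTG, the core of the hypoxia response element, in capitals (its reverse, CACGT, overlaps it where the letters read CACGTG). PPFIA4 is on the plus strand at chr1:203026241-203026490 and P4HA1 on the minus strand at chr10:73096867-73097116.
PPFIA4: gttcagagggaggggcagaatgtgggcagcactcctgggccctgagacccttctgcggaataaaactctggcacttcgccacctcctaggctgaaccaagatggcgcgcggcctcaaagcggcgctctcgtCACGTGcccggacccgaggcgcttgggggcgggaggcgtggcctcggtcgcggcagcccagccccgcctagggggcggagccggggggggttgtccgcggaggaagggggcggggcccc
P4HA1: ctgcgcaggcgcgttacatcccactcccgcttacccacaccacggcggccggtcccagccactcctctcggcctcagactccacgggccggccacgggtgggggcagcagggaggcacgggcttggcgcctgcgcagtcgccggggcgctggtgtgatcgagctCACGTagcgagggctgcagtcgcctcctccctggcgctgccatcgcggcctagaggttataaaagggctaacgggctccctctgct
Of 19 list members with a RefSeq promoter 11 hold the core (57.9%), against 5101 of 27305 promoters in all (18.7%). Of 2103 tested genes that hold it, 527 rose and 513 fell. For GAANNTTC, a pair of heat shock element units, the shares were 8 of 20 heat shock genes (40%) and 5.85% of all promoters. Of 336 tested genes that hold it, 81 rose and 84 fell. For TCACNCCAC, a sterol regulatory element core, they were 1 of 18 sterol genes (5.56%) and 0.875%. Of 79 tested genes with this core, 20 rose and 19 fell. The shares within lists rest on sequence alone and say nothing of these libraries.

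**Figure D3:**
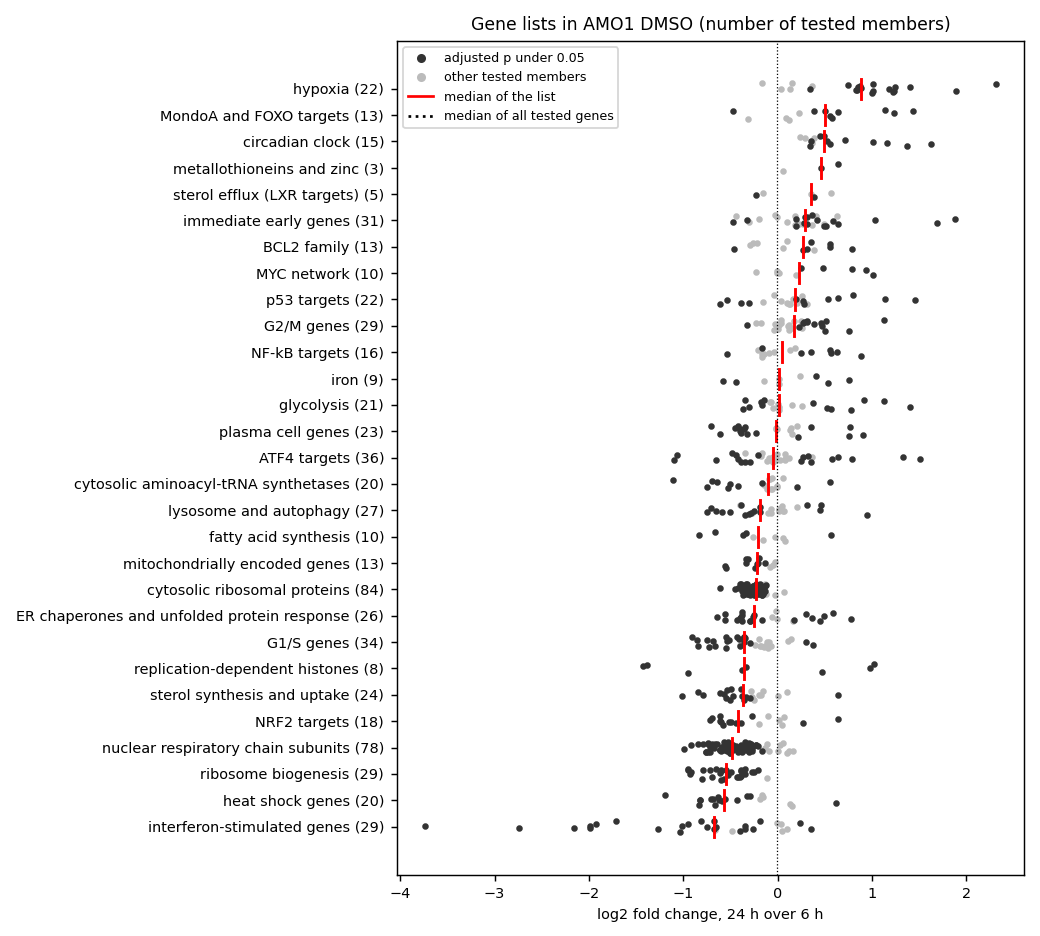
Log2 fold change of each tested member in 29 gene lists, ordered by the median of the list (red), with called members in black, others in grey, and the median of all tested genes dotted (-0.00). Lists run from the interferon-stimulated genes (median -0.67) to hypoxia (median 0.88), and 28 of the 29 ribosome biogenesis genes were called lower.

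Glycolysis was mixed, with 7 of 21 members higher and 6 lower (3 lower without the 6 h replicate 1 or without the 24 h replicate 1), and a median of 0.01. ENO2, an enolase isoform, went from 236, 249 and 214 CPM to 505, 544 and 477 CPM (log2 fold change 1.12, SE 0.07, adjusted p = 2.04e-11), GPI, glucose-6-phosphate isomerase, rose by 0.78 and the transporter SLC2A3 by 0.92. PKM (-0.36), TPI1 (-0.34), ALDOA (-0.17) and ENO1 (-0.14), all of the central pathway, fell, and LDHA (-0.07), GAPDH (-0.05) and PGK1 (0.01) were not called. Sterol synthesis fell in 15 of 24 members (median -0.37), with farnesyl diphosphate synthase FDPS from 517, 519 and 458 CPM to 272, 276 and 286 CPM (log2 fold change -0.84, SE 0.06, adjusted p = 6.17e-10). STARD4, a sterol carrier, was the member that rose (0.64). Fatty acid synthase FASN fell by 0.83 (SE 0.06) and ATP citrate lyase ACLY by 0.67, while the elongase ELOVL6 rose by 0.57. Of 18 NRF2 targets 11 fell and 2 rose (median -0.42), among them PRDX1 (-0.70), and the cystine importer SLC7A11 rose by 0.64. Its call held in 9 of 13 alternatives and was lost without the 6 h replicate 2 or the 24 h replicate 2 (highest adjusted p 0.107), and 0 NRF2 targets were called higher without the latter. In iron handling, the ferritin light chain FTL fell by 0.44 and haem oxygenase HMOX1 by 0.58, while IREB2, an iron regulatory protein, rose by 0.53.

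Cell cycle genes moved in opposite ways. Of 34 G1/S genes 19 fell and 2 rose (median -0.35), whereas of 29 G2/M genes 12 rose and 1 fell (median 0.17). MCM5, of the replicative helicase, went from 160, 158 and 154 CPM to 82.9, 85.6 and 92.0 CPM (log2 fold change -0.85, SE 0.08, adjusted p = 1.04e-08). CENPE, a kinetochore motor, went from 27.99, 30.4 and 33.004 CPM to 69.6, 62.6 and 68.2 CPM (log2 fold change 1.13, SE 0.11, adjusted p = 1.6e-08), and CENPF rose by 0.76. CDK1 (-0.00), BIRC5 (0.02) and CCNA2 (0.11) were not called. Of 32 replication-dependent histone genes 8 passed the filter on low counts, 3 higher and 5 lower. The number higher was 1 without the 24 h replicate 1 and by the Wald test, and the list median was -0.36, but 0.30 with no filter. H2BC12 fell from 102, 110 and 107 CPM to 39.3, 38.2 and 40.9 CPM, with 71.0% of its 31-base sequences found in other genes. The libraries were poly(A)-selected, and most histone messages carry no poly(A) tail, so these values are of a minor fraction of them.

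Immediate early genes rose in 15 of 31 members and fell in 2 (median 0.29). KLF2 (chromosome 19, 16324826 to 16328685), a zinc finger factor, went from 27.4, 31.7 and 40.3 CPM to 120, 124 and 120 CPM (log2 fold change 1.88, SE 0.11, adjusted p = 7.18e-12), FOSL2 rose by 1.69 and the mRNA decay factor ZFP36 by 1.03. FOS (-0.30), NR4A1 (-0.44) and DUSP1 (-0.03) were not called, and KLF6 fell by 0.47. Circadian clock genes rose in 11 of 15 members and fell in 0 (median 0.49). NR1D2, a repressor of the clock, went from 11.9, 12.6 and 16.7 CPM to 48.7, 42.4 and 37.5 CPM (log2 fold change 1.62, SE 0.15, adjusted p = 1.49e-08), PER1 rose by 1.37, RORA by 1.16 and NR1D1 by 1.02. BMAL1 (0.23) and CRY1 (0.39) were not called. MondoA and FOXO targets, which report nutrient and insulin signalling, rose in 8 of 13 members and fell in 1, with YPEL3 at 1.43 and RICTOR, of the mTORC2 complex, at 1.14. Without the 6 h replicate 2, 5 of these targets rose.

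**Figure D4:**
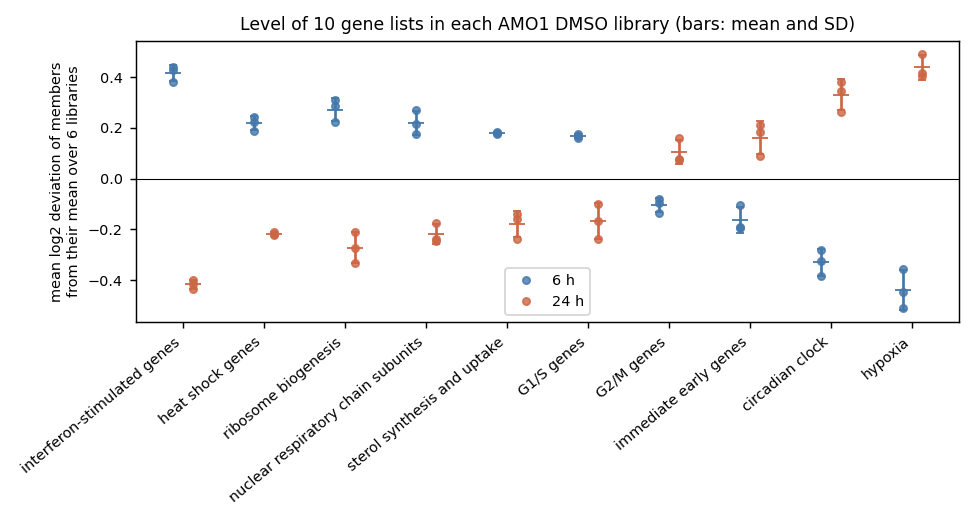
Mean level of the tested members of 10 gene lists in each library, as the deviation in log2 CPM from each gene's mean over the 6 libraries. Points are libraries (blue 6 h, orange 24 h), with mean and SD. The hypoxia list moves from -0.44 ± 0.08 to 0.44 ± 0.05 and the interferon-stimulated list from 0.42 ± 0.03 to -0.42 ± 0.02 (SD, n = 3). Neither overlaps between times, as is so for most of the lists.

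Some genes are of interest because the study follows them under its inhibitors. Of 36 ATF4 targets, which the integrated stress response raises, 9 were higher and 10 lower (median -0.05), shares near those of all tested genes. STC2 rose by 1.51 (SE 0.17) and VLDLR by 1.33 (SE 0.31), ATF5 fell by 1.10 (SE 0.13) and CHAC1, a glutathione-degrading enzyme, by 1.06 (SE 0.23), while ASNS (-0.18), TRIB3 (-0.09) and DDIT3 (0.08) were not called. Of 20 cytosolic aminoacyl-tRNA synthetases, which load amino acids onto tRNAs, 8 fell and 2 rose. WARS1, the tryptophanyl enzyme and also an interferon-responsive gene, went from 819, 778 and 767 CPM to 361, 352 and 385 CPM (log2 fold change -1.10, SE 0.06, adjusted p = 1.67e-12). EPRS1, the glutamyl-prolyl enzyme that NCP26 targets, was at 299, 317 and 328 CPM and then at 372, 350 and 364 CPM, a log2 fold change of 0.20 (SE 0.06, adjusted p = 0.0107) that was 0.07 (adjusted p = 0.293) with an offset for GC content and not called without the 6 h replicate 1 or the 24 h replicate 1. Endoplasmic reticulum chaperones and unfolded protein response genes had 15 of 26 lower and 7 higher, with EDEM1, of misfolded protein disposal, up by 0.77 and SDF2L1 down (-0.64).

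Plasma cell genes had 11 of 23 members lower and 5 higher. IRF4 (chromosome 6, 391739 to 411443), the factor on which myeloma cells depend, went from 289, 306 and 336 CPM to 594, 597 and 549 CPM (log2 fold change 0.90, SE 0.06, adjusted p = 2.54e-10). SDC1 (syndecan 1, CD138) went the other way, from 3471, 3411 and 3030 CPM to 2402, 2453 and 2654 CPM (log2 fold change -0.40, SE 0.05, adjusted p = 2.26e-06), as did the surface antigens SLAMF7 (-0.61) and TNFRSF17 (-0.42). MYC was at 404, 413 and 423 CPM at 6 h and 410, 405 and 421 CPM at 24 h, with overlapping groups and a log2 fold change of -0.00 (SE 0.06, adjusted p = 0.969). Its antagonists MXI1 and MXD1 rose by 1.01 and 0.93, and of 10 MYC network genes 5 rose and 0 fell (3 and 0 in a fit of all AMO1 groups). MXI1 is also counted in the hypoxia list. TCF3 was not called (0.13, SE 0.06, adjusted p = 0.0633) except with the GC offset, nor was PIM2 (-0.02). PRDM1 rose by 0.22 (SE 0.08, adjusted p = 0.0222), but was called in 8 of 13 alternatives, and not without the 6 h replicate 1 or 2 or the 24 h replicate 1 or 3 (highest adjusted p 0.0895). Of 22 p53 targets 8 rose and 4 fell, with TP53INP1 at 1.46, ZMAT3 at 1.14, CCNG1 at 0.79 and MDM2 at 0.65, and CDKN1A was not called (-0.15); without the 24 h replicate 2, 5 rose. BCL2 family genes had 6 of 13 higher and 1 lower, the rises including BMF (0.79), BCL2L11 (0.56) and BCL2 (0.55), on both the death and the survival side. NF-kB targets had 6 of 16 higher and 2 lower. Lysosome and autophagy genes had 4 of 27 higher and 12 lower, with LAMP1 at -0.71 and ULK1 at 0.94. Of 11 metallothionein and zinc genes 8 were below the filter on low counts, and of the 3 tested 2 were higher and 0 lower. The 2 called, SLC30A1 (0.64) and MTF1, are not metallothioneins, and the MTF1 call held in 8 of 13 alternatives. The list of LXR targets had 1 of 5 higher and 1 lower. ABCA1 rose by 0.39 and was not called without the 6 h replicate 2. The member that fell, NR1H2, encodes an LXR itself, and its call held in 6 of 13 alternatives (log2 fold change -0.28 to -0.14).

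A trend with base composition ran through the contrast. Log2 fold changes correlated with the GC content of transcripts at -0.17 and with log length at 0.17 across 10510 genes, which are not independent replicates. Of the 2628 genes of lowest GC content 864 rose and 326 fell, and of the 2628 of highest GC content 456 rose and 784 fell. With an offset for GC content 5049 genes were called, and the hypoxia and interferon lists kept their direction.

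**Figure D5:**
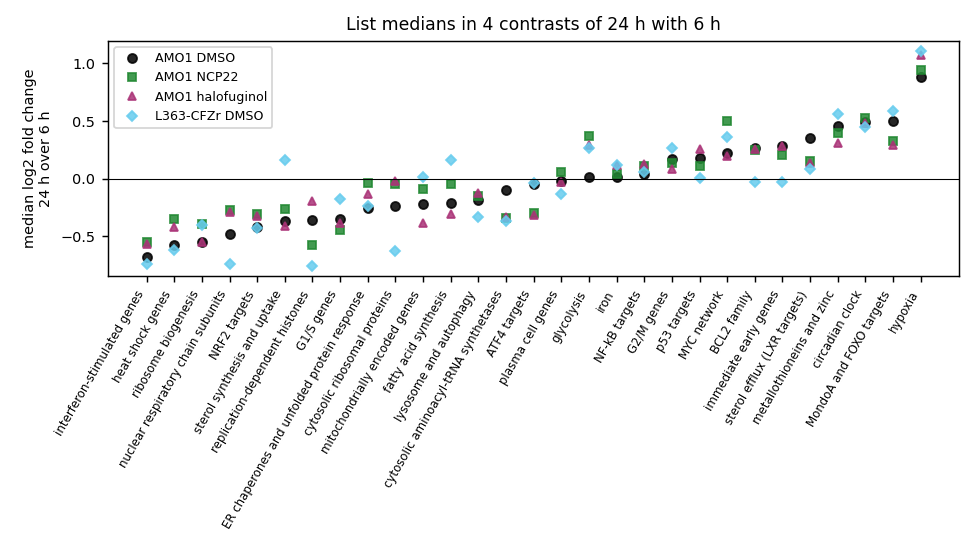
Median log2 fold change of 24 h over 6 h for the same 29 lists in AMO1 DMSO (black circles), AMO1 NCP22, AMO1 halofuginol and L363-CFZr DMSO. The hypoxia median is 0.88 in AMO1 DMSO, 0.95 in AMO1 NCP22, 1.07 in AMO1 halofuginol and 1.10 in L363-CFZr DMSO. For the interferon-stimulated genes the medians are -0.67, -0.55, -0.56 and -0.74 in the same order. Sterol synthesis is lower in AMO1 DMSO (-0.37) than in L363-CFZr DMSO (0.16).

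The same times could be set side by side in libraries that share none with these 6. In AMO1 cells in NCP22, a pyrazinamide compound of the study, 3595 of 10874 genes were called (33.1%). In halofuginol, an analogue of the inhibitor halofuginone, 4599 of 10798 were called (42.6%). Both compounds bound prolyl-tRNA synthetase in the paper's assay, though the paper calls their potency lower or absent. These contrasts may therefore hold compound effects, which were not tested. ATF4 targets fell in 17 of 36 members in NCP22 and 21 in halofuginol, against 10 in AMO1 DMSO. Over all tested genes, 1736 of 10874 fell in NCP22, 2223 of 10798 in halofuginol and 2496 of 10665 in AMO1 DMSO. Of genes tested in both contrasts, 2592 were called in AMO1 DMSO and NCP22 with the same direction, 52.4% of the DMSO calls and 72.8% of the NCP22 calls, and 35 with opposite directions. For halofuginol 3435 were called in the same direction, 69.4% of the DMSO and 75.4% of the halofuginol calls, and 23 in opposite directions. MX1 fell by 2.64 in NCP22 and 2.74 in halofuginol, WSB1 rose by 1.82 and 2.06, and KLF2 by 2.12 and 1.94. Other groups differed in their counts, a difference that was not tested. Of the 84 cytosolic ribosomal protein genes 2 were called lower in NCP22 and 7 in halofuginol, and glycolysis genes were 14 higher and 0 lower in NCP22 and 14 higher and 3 lower in halofuginol. The trend with GC content differed as well, with a correlation of 0.20 in NCP22 and 0.05 in halofuginol against -0.17 in AMO1 DMSO. What part it had in these counts was not tested. In L363-CFZr, a carfilzomib-resistant subline of the myeloma line L363, DMSO libraries gave 1563 of 10554 genes (14.8%), and 1174 were called with the same direction, 24.8% of the AMO1 and 78.3% of the L363-CFZr calls. By the sample numbers in the count table the AMO1 DMSO libraries of both times came from one set, while the times of each of these other contrasts came from different sets, so set and time cannot be told apart there. The L363-CFZr count was 14 to 21 without any 1 of its 6 h libraries 793 without its 24 h replicate 3 and 4419 without its 24 h replicate 2. In this line ENSG00000269339, PPIP5K2 and ITPRIPL2 were not called (log2 fold changes of -0.20, -0.27 and -0.12), and their replicates scattered widely. Without TMM scaling, PPIP5K2 was at 929 to 4290 CPM at 6 h (median 2090) and 824 to 3201 CPM at 24 h (median 2555). Whether these genes rose in this line cannot be told from such a spread.

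The time effect itself was tested for a difference between the lines, as an interaction over the 12 DMSO libraries, and 92 of 11146 genes were called (0.825%). This count was 13 to 44 without any 1 of 10 libraries, 62 without the L363-CFZr 24 h replicate 3, 751 without the L363-CFZr 24 h replicate 2 and 16 with the replicate number as a block. KLF2 rose in AMO1 but stood at 4.53, 9.42 and 9.27 CPM at 6 h and at 2.90, 5.50 and 4.57 CPM at 24 h in L363-CFZr, a difference of 2.79 (SE 0.35, adjusted p = 0.00351) that was called under all 18 alternatives. FASN fell in AMO1 and was not called in L363-CFZr. Its difference was -1.80 (SE 0.37, adjusted p = 0.0391, called in 8 of 18 alternatives). In all, 6 sterol synthesis genes and 2 fatty acid synthesis genes had a lower log2 fold change in AMO1 than in L363-CFZr by this test and 0 a higher one. The L363-CFZr 24 h replicate 2 stood apart, with 4.37% of its counts in ribosomal protein genes against 10.4 and 10.3% in its replicates, and it held 1070 CPM of FASN against 467 and 430 CPM. Without this library the FASN difference was called at an adjusted p of 7.43e-09. Its size depended on the setting, from -2.04 to -1.29 over the 18 alternatives. The hypoxia list held 1 called difference and the interferon-stimulated list 0, with list medians of 1.10 and -0.74 in L363-CFZr. The number of genes called by the interaction does not show that the other genes acted alike in the lines.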

How the data were processed

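Libraries of poly(A)-selected RNA were prepared with a directional kit and sequenced from both ends on a NextSeq 500. The authors assigned reads with kallisto, in words of 31 bases, to a transcriptome that the paper's methods place on GRCh38 and the submitters' processing notes on hg19, and deposited estimated counts, whole numbers that were not normalized, for 20167 genes. Which kallisto version, annotation, strand setting and summing to genes were used is not given in the sources used here, so antisense and overlapping genes may share reads. All columns were mapped to samples by their names, and 0 were left unmapped.

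Counts were filtered with filterByExpr (minimum count 10, minimum total 15), scaled by TMM and fitted with edgeR 4.0.16 in R 4.3.3 by its quasi-likelihood F test, with p-values adjusted by Benjamini-Hochberg over all tested genes (threshold 0.05), using only the groups compared. SEs were taken as the size of the log2 fold change over the root of F. The authors used DESeq2, which is an alternative here (version 1.42.0). In data simulated for the AMO1 DMSO contrast (10574 genes), 76 of 100 genes changed 1.5-fold and 88 of 100 changed 2-fold were called, and 10.4% of calls were false. For the difference between lines 1 of 100 and 24 of 100 were called, and 3.85% of calls were false. Only these genes were changed in each simulation, with no other effect of time or line. In the AMO1 DMSO data 46.5% of genes were called, so the simulated shares need not hold there. The 10.4% was above the threshold of 0.05. Tables and figures used Python 3.11.15, numpy 2.4.6, pandas 2.3.3 and matplotlib 3.10.9.

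Named genes were the 12 largest rises and 12 largest falls among called genes that averaged 5 CPM or more and did not overlap, up to 4 called members of each of 36 lists by absolute change (where fewer than 2 were called, the 2 of highest mean), MYC, TCF3, SDC1, EPRS1, PIM2, IRF4 and PRDM1, and the 8 largest differences between lines. Other list members are named after their values were seen, and a few genes that these rules name are not reported here. The comparison, lists and rules were chosen with earlier results of these data known. Of the 30 pathway lists, immunoglobulin constant genes had no tested member. GENCODE v44, with 19299 of the identifiers, gave positions and shared 31-base sequences, and RefSeq (GRCh38.p14) the promoters. Alternatives were DESeq2 size factors and its Wald test, no filter, a fit of all groups of a line, omission of single libraries, a block for the replicate number, an offset for GC content and, added after seeing the data, leaving out 4 genes.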

Additional observations from a re-analysis of the deposited data

Results flagged for a closer look

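Named genes whose time effect differed between AMO1 and L363-CFZr in the interaction test of edgeR (adjusted p under 0.05) are given here as the AMO1 log2 fold change minus that of L363-CFZr. In L363-CFZr the times came from different sample sets, so set and time cannot be told apart in its share of each difference.

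KLF2 differed by 2.79 (adjusted p = 0.00351) and was called under each of 18 alternatives, as was L1CAM, a cell adhesion molecule, at -4.08 (adjusted p = 0.00997). L1CAM was at 8.74, 7.196 and 9.77 CPM at 6 h and at 17.9, 18.9 and 21.03 CPM at 24 h in AMO1, and went from 3 counts in all to 127 in L363-CFZr. With so few counts at 6 h the size of its difference is uncertain (-4.72 to -3.64 under the alternatives). KCNMB4, a potassium channel subunit, differed by -5.64 (adjusted p = 0.00752), with 0 counts in the L363-CFZr libraries at 6 h and 24 at 24 h, so the size depends on the prior count. The same holds for ADGRA2 (-3.85, adjusted p = 0.0384), with 1 count and 30. RORA rose by 1.16 in AMO1 and 2.81 in L363-CFZr, a difference of -1.63, and ENO2 by 1.12 and 1.93, a difference of -0.79. ADGRA2 was called in 5 of 18 alternatives, ENO2 in 6 and RORA in 9.

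FASN differed by -1.80 and WARS1 by -0.70, both lower at 24 h in AMO1. In L363-CFZr, FASN was at 467, 1070 and 430 CPM at 24 h, with replicate 2 far above the others. ZMAT3 differed by 1.30 and HSPA1B by 0.89. These 4 were called in 5 to 8 of 18 alternatives.

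ITPRIPL2 (5.68), ARHGEF33 (6.06) and PPIP5K2 (4.68) differed in the same test, and ENSG00000269339 at an adjusted p of 0.00156. These are the genes that vary together over the series, called in 14, 9, 11 and 18 of 18 alternatives, and what set their level was not tested.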

How the results depend on the processing

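The AMO1 DMSO count of 4964 genes was 3770 by the Wald test of DESeq2 and 4027 to 5094 with a library left out, and 4315 to 5053 under the other alternatives, with 48.5 to 51.1% of calls higher at 24 h. Same-numbered libraries of the 2 times correlated in their deviations at -0.108 to -0.019, and libraries of other numbers at -0.033 to 0.126. In L363-CFZr these ranges were 0.026 to 0.088 and -0.084 to 0.061. With so few replicates this cannot tell whether same-numbered libraries shared a culture or preparation. With the replicate block 4682 genes were called. Of the values of named genes under the alternatives 1772 kept their direction and side of the threshold, 56 were no longer past it, 1 came past it and 0 reversed. Cytosolic ribosomal proteins had 6 members lower in the fit of all AMO1 groups and 66 to 81 otherwise; the cause was not tested.

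The L363-CFZr count of 1563 was 5169 with all its groups in one fit and 14 to 4419 with a library left out, 1796 with the replicate block. The difference between lines (92 genes) was 195 by the Wald test, 722 with all groups in one fit, 16 with the replicate block and 13 to 751 with a library left out; the cause was not tested. For NCP22 and halofuginol the counts stayed within 1.5 times of 3595 and 4599, with 3038 and 4469 under the block. Depth (2712083 to 5005629 counts a library) limits genes of low level such as IFIT1 and NPR3. In the simulation, within its setting, few changed genes were recovered for the difference between lines.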

Other observations

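Some further gene families were counted after their values had been seen, and are given as counts beside the background of 23.1% higher and 23.4% lower. Of 45 tested proteasome subunits and chaperones 38 fell and 0 rose (median log2 fold change -0.53), led by PSME2 from a mean of 216 to 106 CPM and PSMD1 from 275 to 148 CPM. PSMB8 and PSMB9 among them are also counted in the interferon-stimulated list. Of 8 subunits of the chaperonin TRiC, which folds actin and tubulin, 7 fell (median -0.55), with CCT7 at -0.78. Mitochondrial ribosomal proteins fell in 52 of 76 members and rose in 2 (median -0.37), and the TIMM and TOMM genes of mitochondrial protein import fell in 17 of 23 (median -0.50). Of 12 MHC class II genes 9 fell and 0 rose (median -0.65), HLA-DRA from 1048 to 697 CPM. Genes with SNRP or LSM symbols, not all of them spliceosomal, fell in 15 of 25 members and rose in 1 (LSM14B, 0.27).

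In the other direction, 10 of 16 KDM histone demethylases rose and 0 fell (median 0.45), KDM7A from 25.5 to 71.6 CPM and KDM5B from 134 to 231 CPM. KDM3A and KDM4B among them are also in the hypoxia list. Among KMT and SETD methyltransferases 11 of 19 rose and 0 fell, with KMT2C at 0.88 and SETD5 at 0.81. Of 4 CLK kinases, which phosphorylate splicing factors, CLK1 (0.71), CLK3 (0.67) and CLK4 (0.31) rose, and CLK2 was not called (-0.12). Of 321 ZNF genes 58 were called higher and 19 lower, neither share above the background. Fold changes also moved with GC content and length over all genes, and the part of that trend in these counts was not tested.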
